A study of Mus musculus with 4 samples.

Results

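The genes described here encode the enzymes of glycolysis and of the pentose phosphate pathway, with their main regulators and side branches. The 35 members were taken by name from the deposited table of 52636 genes. Each matched 1 row except Aldoa, which matched 2, so 36 rows were used. RNA had been sequenced from C57BL/6 mouse Th17 cells, a class of helper T cell named for interleukin 17. There were 2 PP2A WT libraries and 2 PP2A cKO libraries. In both genotypes naive T cells had been cultured for 2 days with 3 irradiated antigen presenting cells per T cell. The cytokines were IL-6 at 20 ng/ml and TGF-β1 at 2 ng/ml. Antibodies against CD3 and CD28 were at 2 µg/ml and those blocking IFNγ and IL-4 at 10 µg/ml. The cells of all 4 libraries had then received 50 ng/ml PMA and 500 ng/ml ionomycin for 4 h, so every value is from restimulated cells. PP2A is a serine/threonine phosphatase, and the labels name neither the subunit deleted, nor the driver of the deletion, nor the age or sex of the mice. The design text calls the libraries biological replicates without saying how mice or cultures were separated, so a p-value here reflects the scatter of these 4 libraries, part of which may be technical.

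Glycolysis splits glucose into pyruvate, and lactate dehydrogenase turns pyruvate into lactate so that the pathway can keep running. The pentose phosphate pathway branches off at glucose 6-phosphate and supplies NADPH and the ribose of nucleotides. Activated T cells, Th17 cells among them, are known for taking up much glucose and passing much of it to lactate, a programme in which the transcription factors MYC and HIF-1α take part. Levels below are FPKM, fragments scaled to gene length and to a total for each library, so levels of different genes are compared per length. The deposited gene length can exceed that of the main coding transcript, as for Hk1 with 8532 against 3851 bases. Ranks of genes and shares of isozymes depend on these lengths.

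The libraries held 18517487 to 20387948 gene-assigned reads. Ppp2ca, the main catalytic subunit gene of PP2A, had 42.2 and 50.1 FPKM in WT and 41.8 and 34.5 FPKM in cKO (limma, adjusted p = 0.36), so this total gave no call on which the labels could be checked. The 5 Th17 markers Il17a, Il17f, Il23r, Rora and Ccr6 were all expressed, with Il17f highest. Their summed level was 4148 and 3808 FPKM in WT and 3018 and 2912 FPKM in cKO, while the 6 T cell markers summed to 529 and 544 FPKM in WT and 652 and 625 FPKM in cKO. No gene of either list was called by limma, but both sums separated the genotypes. Among all tested genes, 28.7% were lower in both cKO libraries and 27.2% were higher in both. The Th17 sum was largely Il17f, with 3318 and 3107 FPKM in WT and 2442 and 2380 FPKM in cKO. Of the T cell markers, Cd3d, Cd3g, Cd4, Lck and Cd28 were higher in both cKO libraries, but Cd3e was lower in both. The Th17 marker Ccr6 (26.6 and 28.003 FPKM in WT, 15.9 and 17.4 FPKM in cKO) was called lower by voom (adjusted p = 0.0159) and by limma after a correction for GC content (0.0283). These settings called 3.33% and 2.41% of all tested genes lower. The markers differed with genotype in this way, and their part in the values given here was not tested. The 6 B cell markers summed to at most 0.786 FPKM in any library, the 9 myeloid markers to 1.29 to 2.27 FPKM, with Cd68 highest, and the 7 erythroid markers to at most 1.13 FPKM. S100a8, S100a9 and Hbb-bt were at 0 in every library.

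No glycolysis or pentose phosphate gene passed the test between the genotypes. Of the 35 members 33 had a mean of at least 1 FPKM and were tested, and 0 were called higher and 0 lower in cKO (limma on log2(FPKM + 1), adjusted p over all genes under 0.05). Across all 10562 tested genes, 0.814% were called higher and 0.256% lower, so the members' count is read against a background near 0. At an unadjusted p under 0.05, 2 members were higher and 5 lower, against 9.56% and 10.3% of all tested genes. limma voom on the reads behind the FPKM values called 3 members lower, Pfkl, Pfkfb3 and Pdk1, and 0 higher, where 3.33% of all tested genes were lower and 2.52% higher. In 11 members the cKO libraries were both lower than either WT library, in 5 both were higher, and the other 17 overlapped. Over all tested genes these shares were 28.7% under and 27.2% above. The members' log2 fold changes had a median of -0.06, and those of all tested genes 0.00. For any 1 gene the smallest two-sided p that exact permutation of these 4 libraries allows is 0.3333.

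**Figure D1:**
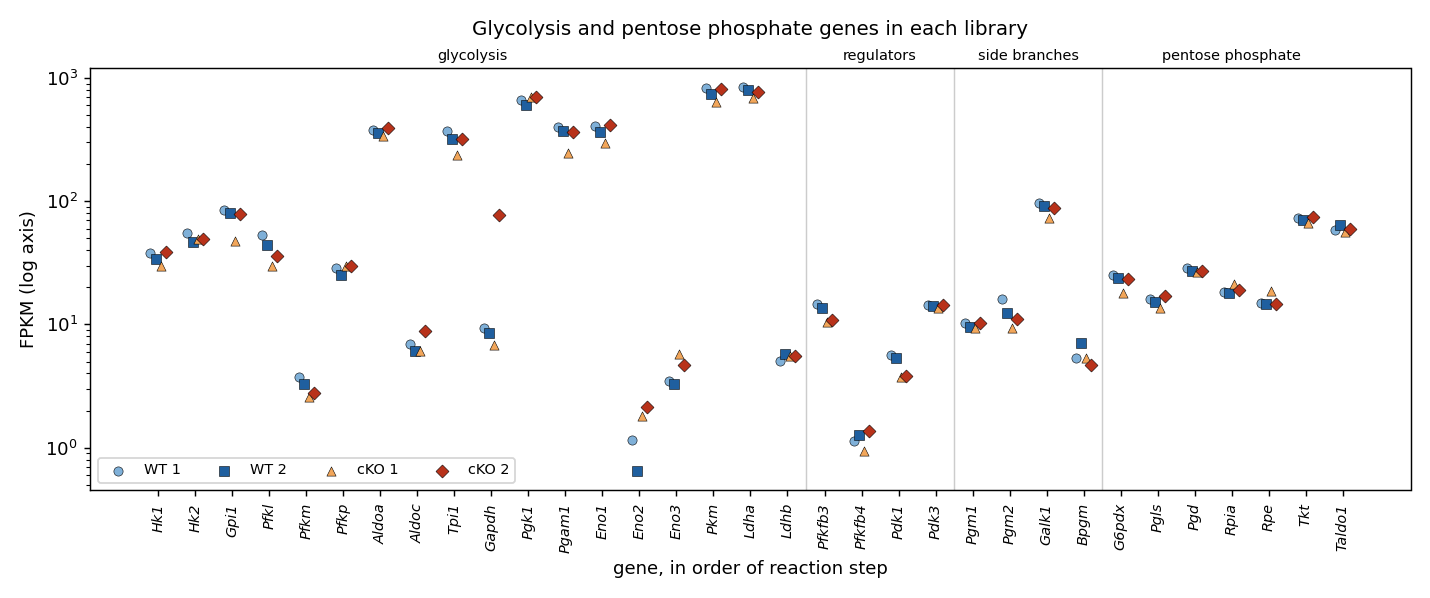
FPKM on a log axis (y) of the 33 tested members (x, in order of reaction step) in each of the 2 WT and 2 cKO libraries, 1 symbol per library. Most members keep their level across libraries, Ldha and Pkm lie at 634 to 847 FPKM and Eno2 at 0.645 to 2.14 FPKM, and the cKO 2 symbol of Gapdh stands apart at 76.6 FPKM.

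As a group the members took 1.75% and 1.63% of the gene-assigned reads in the WT libraries, 1.38% in cKO replicate 1 and 1.68% in cKO replicate 2. Only cKO replicate 1 lay outside the WT range.

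Hexokinases commit glucose to the cell by phosphorylation. Hk2, the inducible isozyme, had 55.0 and 47.1 FPKM in WT and 49.0 and 49.1 FPKM in cKO, a log2 fold change of -0.05 ± 0.11 (SE; adjusted p = 0.808, limma). Hk1, the widely expressed isozyme, had 38.3 and 33.8 FPKM in WT and 29.9 and 38.5 FPKM in cKO. The groups overlapped for both genes, and Hk2 made up 56.0% to 62.1% of the hexokinase FPKM in every library. This share depends on the deposited lengths, 5969 bases for Hk2 and 8532 for Hk1. In WT replicate 1 the reads were 6429 for Hk2 and 6397 for Hk1. Hk3, an isozyme of myeloid cells, had 0 and 1 reads in WT and 1 and 3 in cKO and was not tested.

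Gpi1, which converts glucose 6-phosphate to fructose 6-phosphate, had 84.6 and 80.1 FPKM in WT, 47.3 FPKM in cKO replicate 1 and 78.5 FPKM in cKO replicate 2. Both cKO values were under both WT values, but cKO replicate 2 lay close to WT replicate 2. The log2 fold change was -0.43 ± 0.24 (adjusted p = 0.38, limma).

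Phosphofructokinase is the main regulated step of glycolysis, and its subunits come from 3 genes. Pfkl, the liver-type subunit (chromosome 10, 77986947 to 78010083, GRCm38), had 53.0 and 44.5 FPKM in WT and 29.7 and 36.2 FPKM in cKO. Both cKO libraries were under both WT libraries, with means of 48.71 ± 6.002 and 33.00 ± 4.596 FPKM (SD, n = 2 libraries). Its log2 fold change of -0.55 ± 0.15 was the lowest among the members (limma, adjusted p = 0.133), and voom gave -0.60 (adjusted p = 0.0474). Pfkm, the muscle-type subunit, also had both cKO values lower (3.72 and 3.29 FPKM in WT, 2.58 and 2.79 in cKO, limma adjusted p = 0.223), and its span overlaps Senp1 on the other strand. Pfkp, the platelet-type subunit, had both cKO values above WT by a small margin, with 28.9 and 25.3 FPKM in WT and 29.99 and 29.6 FPKM in cKO (limma, adjusted p = 0.499). Its span overlaps Pitrm1, which cannot be told apart from it where they share bases, since the strand setting of the counting is not given.

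The mix of phosphofructokinase transcripts differed accordingly. Pfkl made up 61.9% and 60.9% of the summed phosphofructokinase FPKM in WT and 47.7% and 52.8% in cKO, while Pfkp made up 33.8% and 34.6% in WT and 48.1% and 43.2% in cKO. These shares did not overlap between the genotypes and were not tested. Levels of single genes were lower in both cKO libraries for 28.7% of all tested genes and higher for 27.2%. Pfkp had more reads than Pfkl in every library, 7591 and 6480 in WT and 8165 and 7704 in cKO. Pfkl had 6917 and 5671 in WT and 4034 and 4692 in cKO. Which gene leads in FPKM thus depends on the deposited lengths, 13401 bases for Pfkp and 6675 for Pfkl. The summed phosphofructokinase FPKM was 85.6 and 73.1 in WT and 62.3 and 68.7 in cKO.

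The enzymes of the middle steps were abundant. Aldoa, the aldolase that makes up 97.8% to 98.3% of the aldolase FPKM, had 376 and 357 FPKM in WT and 337 and 391 FPKM in cKO (log2 fold change -0.01 ± 0.12, limma adjusted p = 0.959). Aldoc, the brain-type aldolase, had 6.14 to 8.90 FPKM. A second row named Aldoa, with its own gene ID and an overlapping span, had at most 0.452 FPKM. Tpi1, which interconverts the triose phosphates, had 374 and 318 FPKM in WT and 235 and 319 FPKM in cKO (-0.33 ± 0.18, limma adjusted p = 0.366). In all 3 genes cKO replicate 1 lay under the WT range, and cKO replicate 2 lay inside it or above it.

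Pgk1, which makes the first ATP of glycolysis, was the exception among the abundant enzymes. It had 665 and 598 FPKM in WT and 700.3 and 700.1 FPKM in cKO, so that both cKO libraries were slightly higher and equal to each other (0.15 ± 0.11, limma adjusted p = 0.475). Pgam1, the next enzyme, had 402 and 371 FPKM in WT, 246 FPKM in cKO replicate 1 and 363 FPKM in cKO replicate 2 (-0.37 ± 0.20, limma adjusted p = 0.369).

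The enolases differed among themselves. Eno1, the main isozyme, had 405 and 366 FPKM in WT and 296 and 411 FPKM in cKO, on both sides of the WT range (-0.14 ± 0.18, limma adjusted p = 0.679). Eno2, the neuron-type enolase, had 1.15 and 0.645 FPKM in WT and 1.82 and 2.14 FPKM in cKO. Eno3, the muscle-type enolase (chromosome 11, 70657202 to 70662513), had 3.50 and 3.28 FPKM in WT and 5.72 and 4.71 FPKM in cKO. Both minor genes were higher in both cKO libraries, with log2 fold changes of 0.66 ± 0.17 for Eno2 and 0.50 ± 0.12 for Eno3, and neither passed (limma, adjusted p = 0.127 and 0.107; voom, 0.0522 and 0.121). Eno2 rests on 58 to 195 reads per library and Eno3 on 109 to 202. Eno1 held 97.5% to 98.9% of the enolase FPKM in every library, so the enolase sum followed Eno1.

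Pkm, the pyruvate kinase gene, had 826 and 744 FPKM in WT and 634 and 806 FPKM in cKO (-0.13 ± 0.15, limma adjusted p = 0.643). Gene totals do not separate its splice forms, and its span overlaps the gene model AC160637.1 on the same strand. Ldha, which makes lactate, had the highest mean FPKM of the members, though Pkm and Pgk1 each exceeded it in 1 cKO library. In reads Pkm was above Ldha in every library, with 64402 to 80822 against 46129 to 54834. The deposited lengths are 5001 bases for Pkm and 3310 for Ldha. Ldha had 847 and 799.7 FPKM in WT and 686 and 767 FPKM in cKO. Both cKO values were lower (-0.18 ± 0.12), a difference that did not pass (limma, adjusted p = 0.423; voom, 0.306). Ldhb, the heart-type subunit that favours the reverse reaction, stayed at 5.05 to 5.80 FPKM.

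Gapdh, the dehydrogenase between the triose phosphates and Pgk1 and a common reference gene, stood apart from all of these. It had 9.37 and 8.47 FPKM in WT, 6.78 FPKM in cKO replicate 1 and 76.6 FPKM in cKO replicate 2, or 758, 669, 569 and 6137 reads. Its level was thus far below that of its neighbours in the pathway in 3 libraries and near that of Galk1 in cKO replicate 2. On the log2 scale the cKO libraries differed by 3.32, the largest difference of any of the 10562 tested genes (rank 1). The log2 fold change between genotypes was 1.31 ± 1.04 and did not pass (limma, adjusted p = 0.505). Without cKO replicate 2 it was -0.35 (adjusted p = 0.0563), and without cKO replicate 1 it was 2.97 (adjusted p = 0.0275). The direction for Gapdh therefore rests on which cKO library is used.

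The Gapdh coding sequence is copied in many pseudogenes, which bears on any read count at this locus. In GENCODE M21, 100% of the 100-base windows within the coding sequence of its principal transcript occur letter for letter in the transcripts of at least 1 other gene, and 86 other genes hold such a window. The window found in the most other genes, 40, spans coding bases 742 to 841 and is shown because its reads cannot be assigned by sequence to Gapdh alone. It lies in coding exons on the minus strand of chromosome 6, at 125162303 to 125162393 and 125162478 to 125162486 (GRCm38), and all its letters are lower case because none differs in Gm7336, the copy with the most reads.
Gapdh coding window: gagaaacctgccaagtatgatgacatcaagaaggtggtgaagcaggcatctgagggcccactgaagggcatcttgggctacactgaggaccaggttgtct
The 85 of these genes that have a row in the table held 3900 and 3726 reads in WT and 2646 and 4155 reads in cKO. Gm7336 alone held 1693, 1642, 853 and 1660 reads in the same order. The copies together were thus highest in cKO replicate 2 by a small margin and lowest in cKO replicate 1, while the Gapdh row was far higher in cKO replicate 2 than in the other 3 libraries. Pgk1 and Pgam1 also have all of their coding windows in other genes, but in 3 and 2 of them, and Eno1 has 69.3% of them in 4 other genes. Whether shared sequence plays a part in the Gapdh difference was not tested. How the authors treated reads that fit several places is not given in the sources used here.

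**Figure D2:**
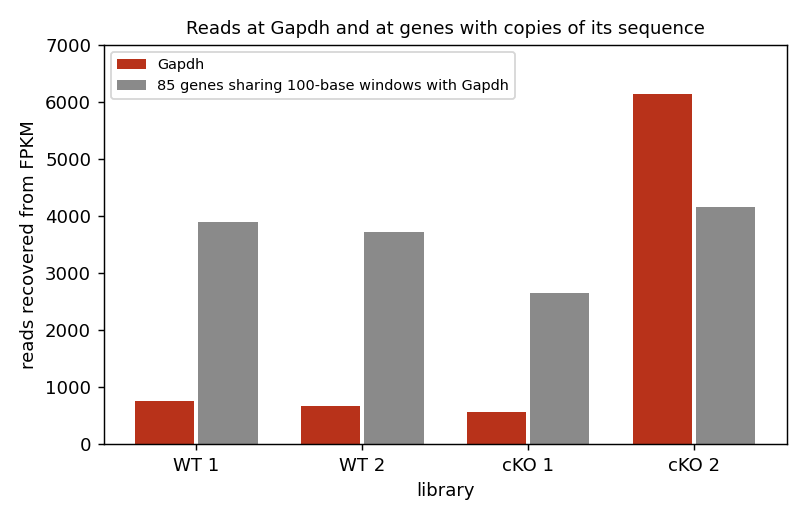
Reads recovered from FPKM (y) at Gapdh and, summed, at the 85 genes that share 100-base windows with it, in each library (x). Gapdh holds 569 to 758 reads in 3 libraries and 6137 in cKO replicate 2, while the other genes hold 2646 to 4155.

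Among the 4 tested regulators, 2 genes had both cKO values under both WT values, as did 28.7% of all tested genes. These 2 genes lay lower by similar amounts in the 2 cKO libraries. Pfkfb3 makes fructose 2,6-bisphosphate, the main activator of phosphofructokinase. It lies on chromosome 2 (11471433 to 11554077, GRCm38) and had 14.8 and 13.6 FPKM in WT and 10.4 and 10.8 FPKM in cKO. Its means were 14.2 ± 0.809 and 10.6 ± 0.307 FPKM (SD, n = 2), a log2 fold change of -0.39 ± 0.09 (limma, adjusted p = 0.11; voom, -0.46, adjusted p = 0.0444).

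Pdk1 encodes a kinase that switches off pyruvate dehydrogenase and so keeps pyruvate out of the mitochondrial cycle. It lies on chromosome 2 (71873224 to 71903858) and had 5.66 and 5.38 FPKM in WT and 3.75 and 3.81 FPKM in cKO. The gap between the genotypes exceeded the spread within either one, with means of 5.52 ± 0.198 and 3.78 ± 0.0465 FPKM (SD, n = 2). The log2 fold change was -0.45 ± 0.09, and its adjusted p of 0.0812 in limma was the lowest among the members. voom gave -0.58 (adjusted p = 0.0282), and limma after a correction for transcript GC content gave -0.48 (adjusted p = 0.0444), where 2.35% of all tested genes were called higher and 2.41% lower. With the replicate block added to that correction the call was lost (limma, adjusted p = 0.0834).

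The paralogs of these regulators showed no such gap. Pdk3, a second pyruvate dehydrogenase kinase, had 14.3 and 14.04 FPKM in WT and 13.7 and 14.3 FPKM in cKO (-0.02 ± 0.09, limma adjusted p = 0.914). Pdk1 made up 28.3% and 27.7% of the summed FPKM of these 2 kinases in WT and 21.5% and 21.05% in cKO. Pfkfb4 had 0.949 to 1.36 FPKM with overlapping groups (limma, adjusted p = 0.899), and Pfkfb1, at 0.496 to 0.723 FPKM, was under the filter. Pfkfb3 held 85.1% to 90.02% of the FPKM of its family in every library.

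The starts of Pfkl, Pfkfb3 and Pdk1, the members that voom called lower, are shown so that their sequences can be compared. The 250 bases before the RefSeq start are given 5′ to 3′ on the gene's strand (RefSeq, GRCm38.p6). Capitals mark ACGTG, a form of the core of the hypoxia response element that HIF-1 binds, read on both strands. Other forms of the core were not searched, so a window without ACGTG may still hold one. ACGTG overlaps the E-box CACGTG, which MYC and other factors bind.
Pfkl, chr10:78009808-78010057, minus strand: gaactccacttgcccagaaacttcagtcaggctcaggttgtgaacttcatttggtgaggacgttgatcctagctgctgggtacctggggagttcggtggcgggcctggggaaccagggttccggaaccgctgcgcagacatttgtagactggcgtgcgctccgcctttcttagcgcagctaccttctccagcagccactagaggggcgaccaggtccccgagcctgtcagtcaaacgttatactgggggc
Pfkfb3, upstream start, chr2:11553930-11554179, minus strand: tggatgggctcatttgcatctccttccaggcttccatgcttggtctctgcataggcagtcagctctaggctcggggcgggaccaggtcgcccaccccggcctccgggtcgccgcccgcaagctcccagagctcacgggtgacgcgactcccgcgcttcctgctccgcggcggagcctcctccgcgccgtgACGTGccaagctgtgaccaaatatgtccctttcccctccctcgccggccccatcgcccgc
Pfkfb3, downstream start, chr2:11502091-11502340, minus strand: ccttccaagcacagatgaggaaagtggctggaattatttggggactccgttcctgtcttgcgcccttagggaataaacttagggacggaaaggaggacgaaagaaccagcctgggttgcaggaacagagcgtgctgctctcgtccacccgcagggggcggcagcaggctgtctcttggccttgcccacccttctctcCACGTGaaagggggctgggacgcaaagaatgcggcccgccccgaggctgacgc
Pdk1, upstream start, chr2:71872974-71873223, plus strand: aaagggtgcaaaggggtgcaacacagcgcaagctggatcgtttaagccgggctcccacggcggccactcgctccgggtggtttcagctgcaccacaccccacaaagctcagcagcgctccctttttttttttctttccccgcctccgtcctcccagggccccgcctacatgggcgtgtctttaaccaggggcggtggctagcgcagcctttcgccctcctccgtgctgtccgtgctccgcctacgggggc
Pdk1 has a second RefSeq start, not printed. The windows of Pfkl and Pdk1 hold no ACGTG, and both windows of Pfkfb3 hold it. All 35 members matched a RefSeq start, in 52 windows. ACGTG was found in 30.8% of these windows and in 16.6% of all 32851 windows of the same length. CACGTG was found in 7.69% and 6.02%, and the GC box GGGCGG in 55.8% and 32.7%. The 4 members with CACGTG were Galk1, Ldha, Pfkfb3 and Pfkm, and in each of them both cKO libraries were lower than either WT library, as in 28.7% of all tested genes. The motif was set beside these values after they were seen. Of the 12 tested members with ACGTG, 6 had both cKO values under WT, and of the 21 without it 5 had, where the share of all tested genes is 28.7%. The difference between these counts was not tested.

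In the side branches Pgm2 and Galk1, of 4 tested genes, had both cKO values under both WT values, as did 28.7% of all tested genes. Phosphoglucomutases link glycogen and glucose 1-phosphate to glycolysis. The row named Pgm2 (chromosome 4) had 16.04 and 12.3 FPKM in WT and 9.35 and 11.1 FPKM in cKO (-0.43 ± 0.16, limma adjusted p = 0.228), and the row named Pgm1 (chromosome 5) had 9.35 to 10.2 FPKM with overlapping groups. GENCODE M21 gives the transcripts of these rows the opposite symbols, so the names are those of the table. Galk1, which brings galactose into the pathway, had 95.96 and 91.9 FPKM in WT and 72.4 and 87.5 FPKM in cKO (-0.24 ± 0.13, limma adjusted p = 0.361). Bpgm, which makes 2,3-bisphosphoglycerate and is best known from red cells, had 5.37 and 7.06 FPKM in WT and 5.38 and 4.71 FPKM in cKO (limma, adjusted p = 0.389).

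No pentose phosphate gene was called by limma with all 4 libraries or by voom. Of the 7 tested, 0 had an unadjusted p under 0.05, against 9.56% higher and 10.3% lower of all tested genes. Without cKO replicate 2, the limma log2 fold change was -0.42 for G6pdx and 0.33 for Rpe. The spread in that fit comes from the 2 WT libraries alone. The median log2 fold change of the 7 genes was -0.04. G6pdx, the entry enzyme and a main source of NADPH, had 25.3 and 23.8 FPKM in WT and 18.1 and 23.2 FPKM in cKO, with both cKO values lower (-0.25 ± 0.14, limma adjusted p = 0.371). It overlaps Ikbkg on the other strand. Pgls and Pgd, which follow it in the oxidative branch, had 13.6 to 17.1 and 26.6 to 28.6 FPKM (log2 fold changes -0.04 and -0.06). In the non-oxidative branch Rpia, which makes ribose 5-phosphate, had 18.2 and 18.04 FPKM in WT and 21.5 and 19.04 FPKM in cKO (0.15 ± 0.10, limma adjusted p = 0.435). Rpe had 14.97 and 14.6 FPKM in WT and 18.8 and 14.6 FPKM in cKO (0.16 ± 0.14). Tkt and Taldo1, which shuffle carbon back to glycolysis, had 66.3 to 74.6 and 56.3 to 63.9 FPKM, with groups that overlapped (log2 fold changes -0.02 and -0.07).

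The 2 cKO libraries differed from each other across these genes. Against the WT mean, the median log2 difference over the 33 tested members was -0.18 in cKO replicate 1 and 0.01 in cKO replicate 2, and over all tested genes it was 0.00 in both. In cKO replicate 1, 24 members were under both WT libraries, against 44.4% of all tested genes, and in cKO replicate 2 there were 12, against 41.6%. In cKO replicate 2, 14 members were above both WT libraries (40.5% of all tested genes), and in cKO replicate 1 there were 6 (43.2%). The level in cKO replicate 2 was above cKO replicate 1 in 27 members, or 81.8%, where the share of all tested genes was 49.4%. The 7 most abundant members, Aldoa, Tpi1, Pgk1, Pgam1, Eno1, Pkm and Ldha, had a median of -0.31 in cKO replicate 1 and 0.04 in cKO replicate 2. The cKO libraries differed by at most 0.06 on the log2 scale for Pgk1, Hk2, Ldhb, Pfkp, Pgd, Pdk1, Pfkfb3 and Pdk3.

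**Figure D3:**
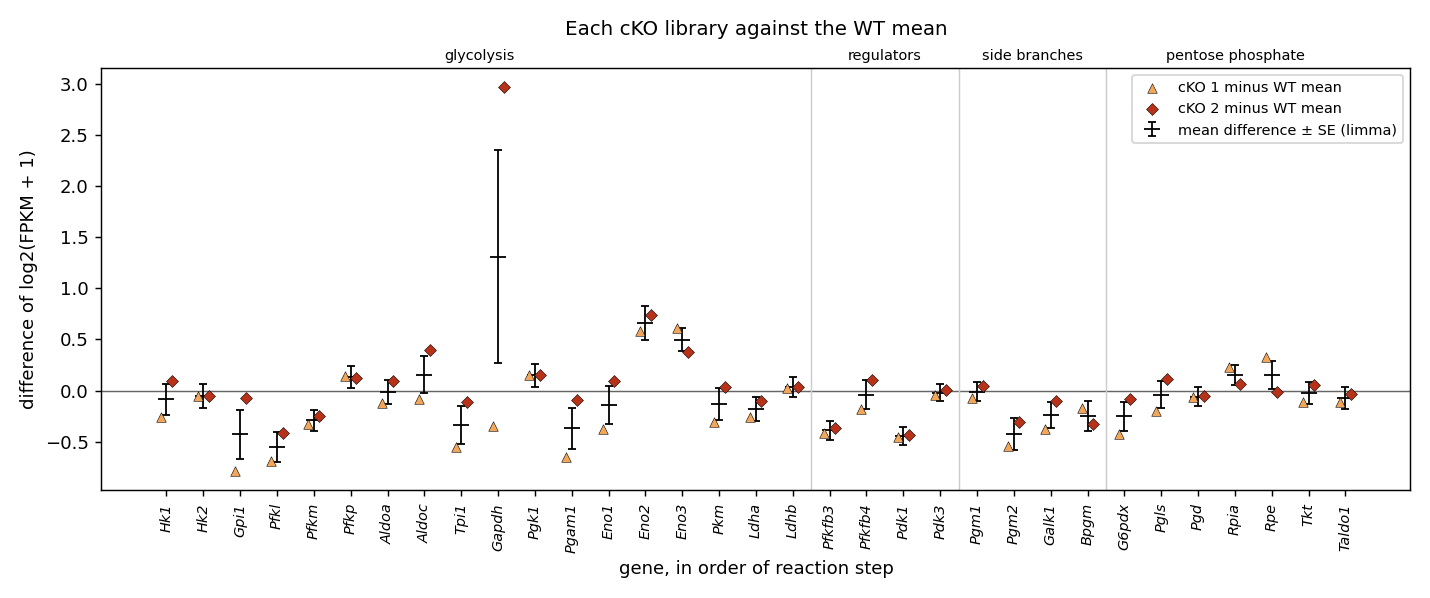
Difference of log2(FPKM + 1) from the WT mean (y) for cKO replicate 1, cKO replicate 2 and the genotype means with the SE of the limma fit, for the 33 tested members (x). The cKO replicate 1 symbols lie lower for 27 of the 33 genes, while both symbols of Pdk1 and of Pfkfb3 lie between -0.46 and -0.36.

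Leaving out a library showed how far the test followed this difference. Without cKO replicate 2, limma called 11 members lower and 2 higher, among 15.3% and 13.2% of all tested genes. The lower ones were Ldha, Pkm, Eno1, Pgam1, Tpi1, Galk1, Gpi1, Pfkl, G6pdx, Pfkfb3 and Pdk1, and the higher ones Rpe and Eno3. Without cKO replicate 1 it called 0 lower and 1 higher, Gapdh, among 1.08% and 1.4%. It called 0 members without WT replicate 1, among 0.625% higher and 0.0947% lower, and 0 without WT replicate 2, among 0.464% and 0.0568%. With 1 cKO library left, the spread comes from the 2 WT libraries alone, and the lone library is assumed to vary as they do.

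Other settings of the limma fit called 0 members in both directions, and the share of all tested genes called is given for each, higher before lower. Pseudocounts of 0.1 and 0.5 gave 0.625% and 0.142%, and 0.757% and 0.237%. A filter of 5 FPKM gave 0.909% and 0.476%, and no filter gave 0 calls over 21807 genes. TPM scaling gave 0.578% and 0.284%, and median-of-ratios scaling 0.843% and 0.256%. Without the variance trend the shares were 0.767% and 0.189%, and with a robust variance 0.767% and 0.218%. The replicate block gave 1.46% and 0.691%, and with the GC correction 1.54% and 0.976%. Pdk1 averages under 5 FPKM and was not tested with that filter.

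Transcript GC content moved with the difference between the cKO libraries. Over all 10550 genes with a GC value, cKO replicate 2 minus cKO replicate 1 had a Spearman's rho of 0.53 with GC content, and over the 32 tested members other than Gapdh rho was 0.56. Genes are not independent, and the points share their libraries, so no p is given. The members had a median GC content of 52.6%, against 49.6% for all tested genes. After a correction of each library for GC content, cKO replicate 2 was above cKO replicate 1 in 23 of 33 members, against 52.3% of all tested genes. The members' median was then -0.10 in cKO replicate 1 and 0.00 in cKO replicate 2, where all genes had -0.02 in both. Gapdh has a GC content of 52.6%, near the middle of the members.

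**Figure D4:**
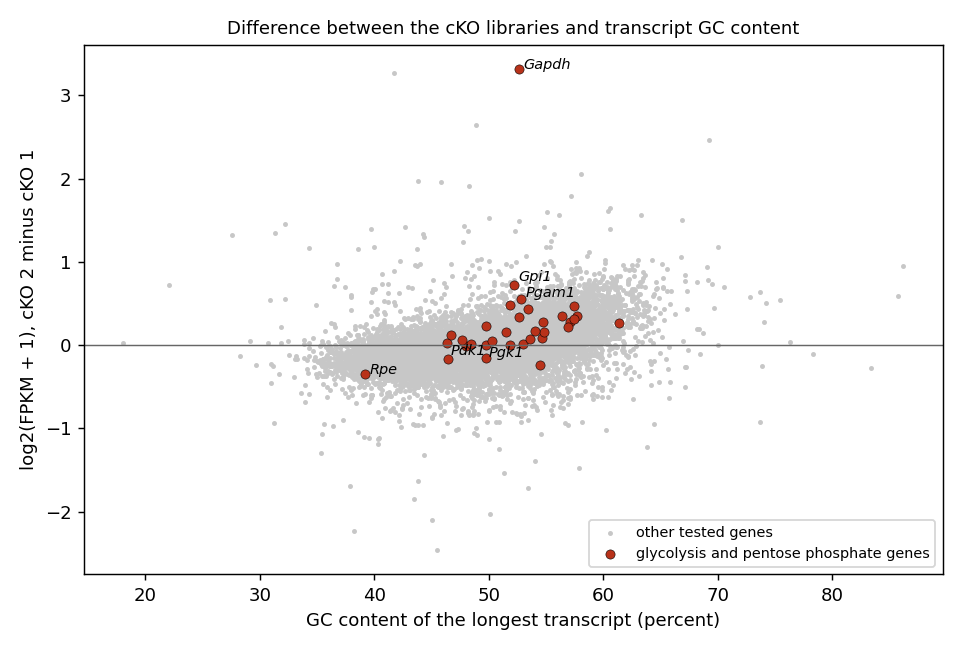
Difference of log2(FPKM + 1) between the 2 cKO libraries (y) against the GC content of each gene's longest transcript in percent (x), for all tested genes and for the 33 members. Spearman's rho is 0.56 over the members without Gapdh and 0.53 over all tested genes with a GC value. Slopes were not compared, and Gapdh lies far above the other members at 3.32.

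Other genes of glucose metabolism were looked at as lists. Of 70 genes in 7 lists 50 were tested, and limma called 0 of them in either direction, while at an unadjusted p under 0.05 there were 5 higher and 6 lower, against 9.56% and 10.3% of all tested genes. voom called Pdp1 higher and Slc16a3 and Slc2a8 lower, where 2.52% of all tested genes were higher and 3.33% lower. Both cKO values were under WT for 19 of the 50 genes and above WT for 11, against 28.7% and 27.2% of all tested genes, and the median log2 fold change was -0.05.

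The gene of this set nearest to the threshold acts against the kinase Pdk1. Pdp1 encodes a phosphatase that switches pyruvate dehydrogenase back on. It had 7.11 and 6.21 FPKM in WT and 12.5 and 10.2 FPKM in cKO, with both cKO libraries higher (means 6.66 ± 0.634 and 11.4 ± 1.67 FPKM, SD, n = 2). The log2 fold change was 0.69 ± 0.13 (limma, adjusted p = 0.078), and Pdp1 passed in voom (0.73, adjusted p = 0.0316). In limma it passed with the replicate number as a block (adjusted p = 0.0477) and after the GC correction (0.59, adjusted p = 0.0429). These 2 settings called 1.46% and 2.35% of all tested genes higher. Pdp1 did not pass with the block and the GC correction together (limma, adjusted p = 0.0516). Nor did it under other pseudocounts, filters, scalings and variance settings (limma, adjusted p from 0.0726 to 0.221). Omitting 1 library gave log2 fold changes from 0.55 to 0.82, and it passed only without cKO replicate 2. The other 9 tested genes of pyruvate entry into mitochondria, among them the dehydrogenase subunit gene Pdha1 (45.0 and 44.9 FPKM in WT, 54.95 and 48.3 in cKO, limma adjusted p = 0.37), had log2 fold changes from -0.19 to 0.19. Pdp2, the paralog of Pdp1, went the other way, with 8.29 and 8.43 FPKM in WT and 7.25 and 7.11 FPKM in cKO. Its log2 fold change was -0.19 ± 0.08 (limma, adjusted p = 0.28).

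Of 7 tested transporter genes, 4 had both cKO values under WT and 1 had both above, against 28.7% and 27.2% of all tested genes. Slc16a3, which encodes the lactate exporter MCT4, had 65.97 and 47.7 FPKM in WT and 31.0 and 37.9 FPKM in cKO (-0.70 ± 0.19, limma adjusted p = 0.14; voom, 0.0457). Slc2a6, a glucose transporter family gene, had 11.2 and 9.24 FPKM in WT and 13.9 and 21.8 FPKM in cKO (0.72 ± 0.22, limma adjusted p = 0.173; 0.0499 without cKO replicate 1). Slc2a1, which encodes the main glucose transporter of activated T cells, GLUT1, had 70.8 and 58.4 FPKM in WT and 46.3 and 64.6 FPKM in cKO, with overlapping groups (-0.23 ± 0.19, limma adjusted p = 0.529).

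The remaining lists held no gene called by limma with all 4 libraries or by voom, and the most changed tested gene of each is given. H6pd, the pentose phosphate entry enzyme of the endoplasmic reticulum, had 3.68 and 4.13 FPKM in WT and 2.63 and 2.67 in cKO (-0.42 ± 0.10, limma adjusted p = 0.11). Galm, which interconverts forms of galactose, had 4.03 and 4.29 FPKM in WT and 5.82 and 5.75 in cKO (0.40 ± 0.09, limma adjusted p = 0.0999). Among 3 other isozymes Pgam2 had a log2 fold change of -0.39, among 3 gluconeogenesis genes G6pc3 had -0.25, and among 6 regulators Txnip had -0.14 (limma, adjusted p = 0.246, 0.474 and 0.423). The RNA of Hif1a was at 77.5 to 83.9 FPKM in all libraries (-0.07 ± 0.10, limma adjusted p = 0.699), and that of Myc had 301 and 260.1 FPKM in WT and 257 and 358 FPKM in cKO (limma, adjusted p = 0.747). In these bulk samples a change in the make-up of the cells and a change in RNA per cell cannot be told apart.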

How the data were processed

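RNA was sequenced in 2 WT and 2 cKO libraries. The authors deposited FPKM per gene, with gene lengths, for 52636 genes, and 0 further sample columns were present. The submitters' processing notes name featureCounts 1.5.0-p3, GRCm38 and mm10. The sources used here do not name the aligner or the annotation, nor how strand and reads with several matches were treated.

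FPKM times gene length, scaled by the total implied by the values for each library (19105296 to 20317062), gave whole reads for 100% of the values, to within 0.01 read. This total exceeded the gene-assigned reads in both WT libraries (19567961 against 19347055 and 19105296 against 18517487). It was below them in both cKO libraries (20317062 against 20387948 and 19393050 against 19521977), so FPKM was not scaled by these reads alone. limma 3.58.1 in R 4.3.3 was fitted to log2(FPKM + 1) over the 10562 genes that averaged 1 FPKM or more, cKO minus WT, with a variance trend, no block and two-sided Benjamini-Hochberg adjustment over all genes at 0.05. Fold changes on this scale understate changes of low genes. GC content came from the longest transcript in GENCODE M21, which held 99.56% of the gene IDs, and copies were searched as exact 100-base windows in its 55450 genes. voom was run on the recovered reads. The fits were also run on simulated reads with known fold changes, and the outcome is not given here. For the fits, those reads had the same variability setting for every gene. No difference between the cKO libraries was built into them, whereas those of the data differ. Alternatives were other pseudocounts, filters, scalings and variance settings, a replicate block, a GC correction and the omission of each library.

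The members, lists and tests were chosen with earlier results of these data known. Genes named in full were the most abundant member of each step, the 3 highest and 3 lowest fold changes and Gapdh. Of each other list the called genes or the most changed tested gene were to be named. Other genes and all minor isozymes were named in addition, after their values were seen. No protein sequences were used here.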

Additional observations from a re-analysis of the deposited data

How the results depend on the processing

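The counts of called members changed under few settings. The count of 0 higher and 0 lower held under other pseudocounts, no filter, a filter of 5 FPKM, TPM scaling, median-of-ratios scaling, no variance trend, a robust variance and the replicate block with or without the GC correction. It became 1 lower after the GC correction alone (Pdk1) and 3 lower in voom. Over the omissions of 1 library the count lower ran from 0 to 11 and the count higher from 0 to 2, with the extremes without cKO replicate 2. For the 50 genes outside the members, 1 was called with the replicate block (1.46% higher and 0.691% lower of all tested genes), 1 after the GC correction (2.35% and 2.41%), 0 with both (1.54% and 0.976%) and 3 in voom (2.52% and 3.33%). Over the omissions 0 to 11 were called, the most without cKO replicate 2 (13.2% and 15.3%). The median of the members stayed between -0.18 and 0.01 over all settings. TPM scaling moved the median of all genes to -0.08, and in voom it was -0.04.

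The replicate numbers give no sign of pairing, since the deviations of same-numbered libraries correlated at -0.093 over genes. The block alone added the call of Pdp1 and changed no other call among the genes named. Added to the GC correction, it ended the calls of Pdk1 (adjusted p = 0.0834) and Pdp1 (0.0516) in limma.

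Among the genes followed across settings, directions turned for Gapdh, whose cKO libraries lie apart, and for those listed next. After the GC correction, with or without the block, Aldoa was at 0.0600, Pgls at 0.0414 and Tkt at 0.0112. Over the omissions Hk2 ran from -0.164 to 0.0577, Aldoa from -0.121 to 0.0954, Eno1 from -0.379 to 0.0956, Pkm from -0.306 to 0.0393, Pdk3 from -0.0473 to 0.00968, Pgls from -0.197 to 0.116, Rpe from -0.0158 to 0.327, Tkt from -0.108 to 0.0591, G6pc3 from -0.503 to 0.00531 and Gapdh from -0.350 to 2.97. Genes not followed in this way turned too. Among them, without cKO replicate 1, were Hk1 at 0.0947, Pfkfb4 at 0.101, Pgm1 at 0.0495 and Slc2a1 at 0.0079. Aldoc at -0.085 and Myc at -0.120 turned without cKO replicate 2. The cause was not tested.

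Tests of the count-model kind planned for whole reads were not run, because the deposited unit is FPKM. The depth of 18517487 to 20387948 reads leaves Hk3 at 0 to 3 reads and Pfkfb1 under the filter.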
